A study of Mus musculus with 12 samples.

Results

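Atad3aos, Appbp2os and Tvp23bos are 3 mouse long non-coding RNA genes named for lying on the strand opposite the protein-coding genes Atad3a, Appbp2 and Tvp23b. Their probes were found on the array by RefSeq accession, without its version: NR_027972 for Atad3aos, NR_028329 for Appbp2os and XR_388723 for Tvp23bos. Each gene had 1 probe, with 1 spot per array for Atad3aos and 2 spots for each of the others. They are 3 of 72515 tested features, of which 2514 carry a RefSeq gene name and 40 are opposite-strand transcripts. The 3 genes were picked from earlier results on the same arrays: Appbp2os for being lower, and Tvp23bos for being higher, in OVA than in control spleens at day 28, and Atad3aos and Tvp23bos for differing between the OVA spleens of days 14 and 28. Those differences are given below as descriptions, with no test.

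The samples were spleens of female BALB/c mice, aged 6 weeks, that received intraperitoneal injections on days 1, 3 and 5 and were killed on day 14 or day 28. The OVA groups received ovalbumin, an egg-white protein used to sensitise mice, at 2 mg/kg, and the control groups received its vehicle, normal saline. The labels call the OVA mice allergic and name neither an adjuvant nor an airway challenge. There were 2 control and 4 OVA arrays for each day, each hybridised with Cy3-labelled cRNA. The labels do not state whether each array stands for a separate mouse, so the p-values measure the spread between these samples, which may in part be technical. Whole spleen RNA was used, so fewer cells of a type and less RNA per cell cannot be told apart.

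An opposite-strand transcript is read from the other strand of a locus than its partner gene. Many such RNAs start close to the partner's own start and run away from it, from a shared promoter rich in CpG dinucleotides, while others lie across the partner's body or farther off. They have been studied as local regulators and as by-products of promoter activity, and most have no assigned role, as is the case for these members. The partners have known roles: Atad3a encodes an AAA ATPase of the mitochondrial inner membrane, Appbp2 a protein that binds the amyloid precursor protein and serves as a substrate receptor of a cullin ubiquitin ligase, and Tvp23b a membrane protein of the trans-Golgi network.

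In the GRCm38.p6 assembly (RefSeq), Atad3aos spans 2369 bases at chr4:155761192-155763560 on the plus strand. It does not overlap Atad3a, which lies 67 bases before the start of Atad3aos. Appbp2os spans 3139 bases at chr11:85235166-85238304 on the plus strand. Appbp2 lies on the minus strand and begins 45 bases before it, so both genes are transcribed away from each other. Tvp23bos spans 3885 bases at chr11:62918747-62922631 on the minus strand and lies 23560 bases from Tvp23b, with no overlap. Of the 40 tested opposite-strand transcripts, 28 overlap their partner, 9 lie within 1000 bases of it without overlap, and 3 lie farther away. Atad3aos and Appbp2os belong to the 9 close ones and Tvp23bos to the 3 distant ones. None of the 3 partner genes had a named probe, so no level of a partner is given. Names were given only through non-coding RefSeq entries, so a protein-coding gene would rarely be named. Whether other probes on the array read the partners was not looked up.

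**Figure D1:**
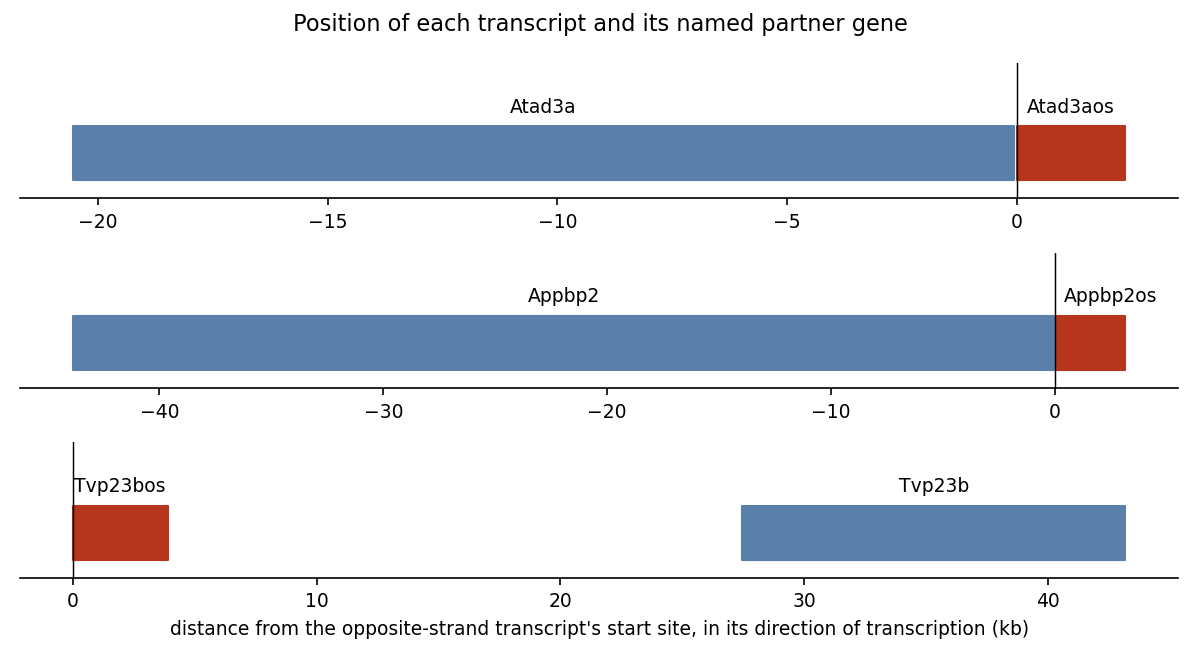
Position of Atad3aos, Appbp2os and Tvp23bos (red) and of their partner genes (blue), as distance in kb from each transcript's start site in its direction of transcription, drawn to scale within each panel. The nearest ends of Atad3a and Appbp2 lie 67 and 45 bases before the start of the transcript, and Tvp23b lies 23560 bases beyond the end of Tvp23bos.

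The promoter windows, 250 bases before to 50 bases after each start site, are shown because they set the members apart: the windows of Atad3aos and Appbp2os lie between or across a pair of genes, and that of Tvp23bos does not. All 3 matched the RefSeq promoter table of the GRCm38.p6 build. Capitals mark a CCAAT box (CCAAT or ATTGG), a GC box (GGGCGG or CCGCCC) or a cyclic AMP response element (CRE, TGACGTCA). The windows are chr4:155760942-155761241 (plus strand), chr11:85234916-85235215 (plus strand) and chr11:62922582-62922881 (minus strand).
Atad3aos: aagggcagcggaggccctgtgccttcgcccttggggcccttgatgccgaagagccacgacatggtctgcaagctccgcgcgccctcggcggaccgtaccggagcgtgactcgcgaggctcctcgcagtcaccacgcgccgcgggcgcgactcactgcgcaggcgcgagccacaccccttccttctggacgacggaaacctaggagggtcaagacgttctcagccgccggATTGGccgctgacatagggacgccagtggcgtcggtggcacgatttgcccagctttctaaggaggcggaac
Appbp2os: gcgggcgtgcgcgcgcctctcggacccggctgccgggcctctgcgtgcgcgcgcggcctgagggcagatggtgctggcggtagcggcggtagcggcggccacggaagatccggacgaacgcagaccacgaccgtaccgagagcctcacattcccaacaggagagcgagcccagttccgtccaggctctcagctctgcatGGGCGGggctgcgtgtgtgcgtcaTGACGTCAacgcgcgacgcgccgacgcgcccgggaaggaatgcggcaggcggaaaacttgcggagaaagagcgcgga
Tvp23bos: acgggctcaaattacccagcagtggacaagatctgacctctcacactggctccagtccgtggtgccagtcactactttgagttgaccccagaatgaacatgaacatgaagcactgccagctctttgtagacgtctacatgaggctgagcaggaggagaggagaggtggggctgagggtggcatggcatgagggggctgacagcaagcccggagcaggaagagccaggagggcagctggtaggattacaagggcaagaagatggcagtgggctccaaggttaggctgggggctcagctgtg

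The window of Atad3aos holds 35 CpG dinucleotides and 67.3% G and C, and that of Appbp2os holds 45 and 70.3%. Of 32851 promoter windows of the same length, 93.8% had no more CpG dinucleotides than Atad3aos and 98.4% no more than Appbp2os. The window of Tvp23bos holds 4 CpG dinucleotides, below the median of 7, although 57.3% of its bases are G or C. The CpG count over the count expected from base composition was 1.03, 1.23 and 0.17 in the same order. The 6 motifs were searched on both strands. The CCAAT box of Atad3aos begins 21 bases before its start site, and 37.4% of all windows hold this motif. Appbp2os has a GC box that begins 51 bases before the start, found in 35.7% of windows, and a CRE that begins 27 bases before the start, found in 1.79%. The window of Appbp2os shares 145 bases with that of Appbp2, including the GC box and the CRE. None of the windows of the 3 members holds TATAAA (13.6% of all windows), CCGGAAG (8.86%) or CACGTG (7.15%), and that of Tvp23bos holds none of the 6. A match of letters is a description of the window and no evidence of binding.

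Each level below is a log2 processed signal from which the 75th percentile over the non-control spots of the same array was subtracted. Per the file headers the controls lay on slide 1, the OVA arrays of day 14 on slide 2 and those of day 28 on slide 3, so slide and OVA cannot be told apart, nor can slide and day among the OVA groups. The comparison of the controls lies within 1 slide. The 75th percentile was 483.8 to 549.3 signal units on the OVA arrays of day 28, against 266.7 to 287.5 on those of day 14, 319.6 to 368.1 in controls of day 14 and 316.4 to 325.9 in controls of day 28. A share of 57.5% to 80.0% of spots was well above background, by the scanner program's flag, and no non-control spot was saturated. The spots within 10 rows and columns of each member's spot shifted by no more than -0.09 to 0.16 on the log2 scale from their array's other spots, and no spot of a member was flagged as an outlier. None of the 29 spleen and other marker genes looked for had a probe named through a non-coding RefSeq entry. Other probes were not looked up for them, so the labelled tissue was not checked.

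Atad3aos was the brightest of the members and was lowest in the OVA spleens of day 28. Its probe was well above background on all 12 arrays. The control arrays of day 14 read -0.51 and -0.27 and those of day 28 read -0.19 and -0.30. The OVA arrays of day 14 read -0.31, 0.18, -0.12 and 0.06, and those of day 28 read -0.54, -0.58, -0.58 and -0.68. All 4 OVA arrays of day 28 lay below every other array, and the OVA arrays of day 14 were the most scattered. The group means ran from -0.05 ± 0.22 (SD, n = 4) in OVA at day 14 through -0.25 ± 0.08 (SD, n = 2) and -0.39 ± 0.17 (SD, n = 2) in controls of days 28 and 14 to -0.60 ± 0.06 (SD, n = 4) in OVA at day 28. In that order, only the last step separated groups whose arrays did not overlap.

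Appbp2os was also lowest in the OVA spleens of day 28, with a smaller separation. It was well above background on all 12 arrays. The control arrays of day 14 read -1.47 and -1.33 and those of day 28 read -0.89 and -1.21. The OVA arrays of day 14 read -1.30, -1.09, -1.33 and -1.07, and those of day 28 read -1.76, -1.85, -1.56 and -1.34. The highest OVA array of day 28 lay 0.014 below the lowest OVA array of day 14 and within the range of the day 14 controls. The group means were -1.05 ± 0.23 (SD, n = 2) in controls of day 28, -1.20 ± 0.14 (SD, n = 4) in OVA at day 14, -1.40 ± 0.10 (SD, n = 2) in controls of day 14 and -1.63 ± 0.22 (SD, n = 4) in OVA at day 28. Neighbours in that order overlapped, except OVA and control of day 14, whose arrays came within 0.00068 of each other. The 2 spots of the probe differed by a median of 0.10 and at most 0.53 on the log2 scale.

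Tvp23bos was dim and stood out on the OVA arrays of day 28 alone. Its probe was well above background on those 4 arrays and on none of the other 8, where a probe counts only if every spot does. The control arrays of day 14 read -4.87 and -5.11 and those of day 28 read -5.29 and -5.20. The OVA arrays of day 14 read -4.97, -4.97, -5.17 and -5.08, and those of day 28 read -3.93, -3.54, -3.67 and -3.67. The OVA arrays of day 28 lay above all others, and no order is given among the 3 dim groups. Its mean over all arrays was higher than that of 0.598% of tested features, against 48.3% for Appbp2os and 63.7% for Atad3aos, as ranks of probe signal and not of RNA amount.

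**Figure D2:**
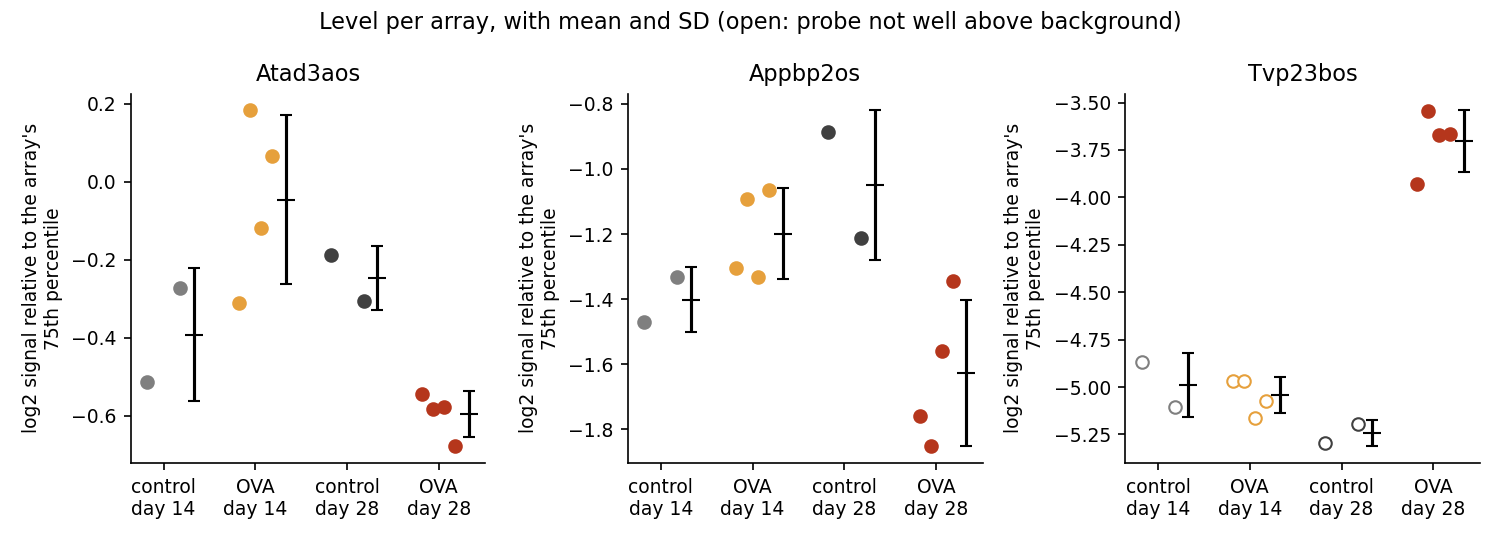
Level of each transcript on the 12 arrays (points, log2 signal minus that of the 75th percentile) by group, with the mean and SD of 2 control or 4 OVA arrays; open points mark a probe not well above background. The OVA arrays of day 28 are lowest for Atad3aos (-0.68 to -0.54), low for Appbp2os (-1.85 to -1.34) and highest for Tvp23bos (-3.93 to -3.54).

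The lower levels of Atad3aos and Appbp2os are relative to each array's own scale. Before scaling, Atad3aos had a processed signal of 324.2 to 343.3 units on the OVA arrays of day 28, against 231.6 to 302.8 on those of day 14 and 256.2 to 285.9 in controls of day 28. Its unscaled signal was therefore highest, not lowest, in the group where its scaled level was lowest. Appbp2os had unscaled signals of 141.0 to 216.3 units in OVA at day 28, 112.3 to 131.9 in OVA at day 14 and 136.5 to 176.2 in controls of day 28. The 75th percentile of the arrays was also highest in OVA at day 28, by a larger factor than the signal of either gene. Tvp23bos had unscaled signals of 32.3 to 43.6 units on the OVA arrays of day 28 and 7.87 to 12.6 on the other 8, so it was highest there on both scales.

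**Figure D3:**
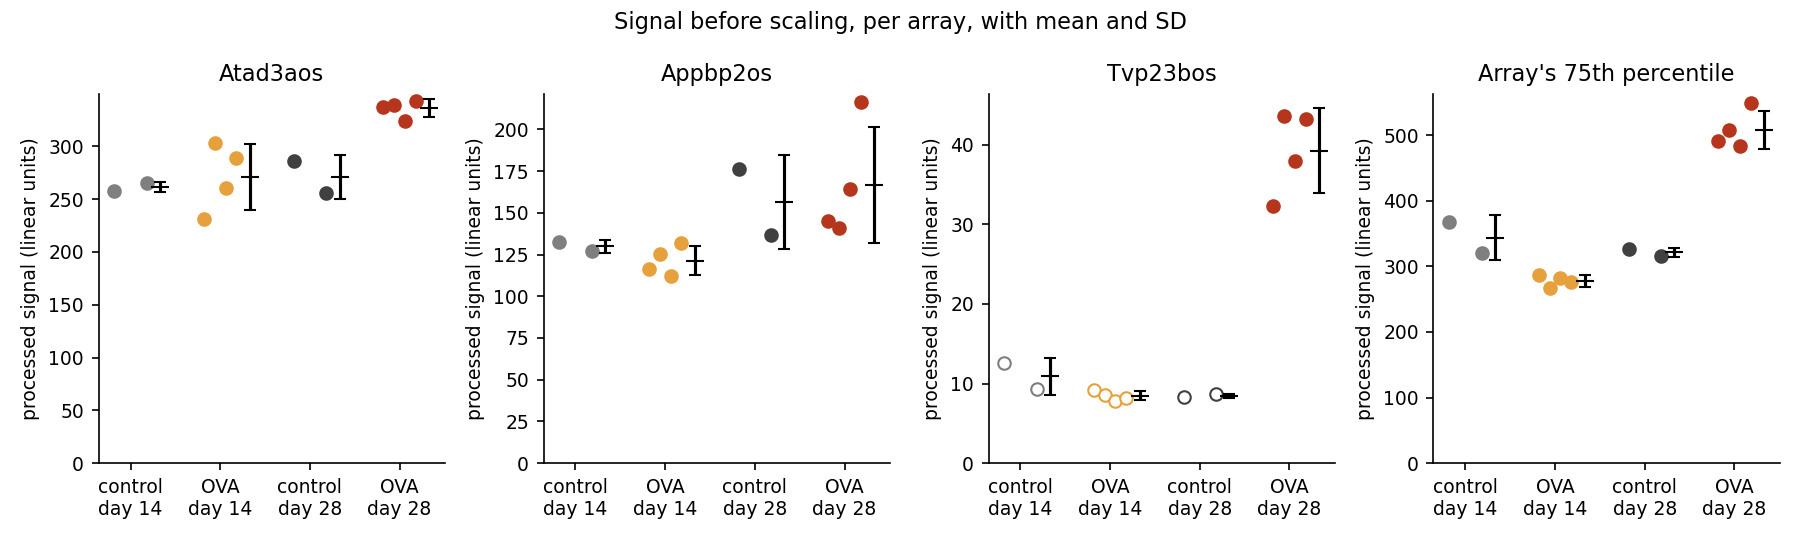
Processed signal in linear units before scaling, per array, for the 3 transcripts and for the 75th percentile of each array, with mean and SD by group; open points mark a probe not well above background. On the OVA arrays of day 28 the 75th percentile was 483.8 to 549.3 and Atad3aos 324.2 to 343.3, both above all other arrays.

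Spike-in RNAs give another scale. Relative to the 75th percentile, the 8 spike-in probes used shifted between the OVA and control arrays of day 28 by a median of -0.05 and a range of -0.41 to 0.51 on the log2 scale. With levels scaled to the spike-ins instead, OVA minus control at day 28 was -0.36 for Atad3aos, -0.59 for Appbp2os and 1.53 for Tvp23bos. All 3 kept their direction there, where the scaling moved every feature by -0.015, a shift too small to turn any of them. Spike-in scaling moved every feature by -0.25 between OVA and control at day 14, by -0.12 between the control groups and by 0.12 between the OVA groups.

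The first comparison sets OVA against saline spleens of day 14. None of the 3 members passed the threshold of an adjusted p under 0.05 by limma, where 0.0676% of all tested features passed (0.0621% higher and 0.00552% lower), and 1 of the 3 had an unadjusted p under 0.05, as did 14.7% of all tested features. Atad3aos stood 0.35 ± 0.14 (SE, log2) higher in OVA, with a 95% interval of 0.05 to 0.64 (adjusted p = 0.273, limma), and the 2 groups overlapped. Under spike-in scaling that difference was 0.09. Appbp2os differed by 0.20 ± 0.15 (SE), with an interval of -0.14 to 0.54 (adjusted p = 0.576, limma), and its sign turned to -0.051 under spike-in scaling. Tvp23bos was not well above background in either group, so no difference is given (adjusted p = 0.874, limma). Of the 3, Appbp2os had groups that did not overlap, as did 23.1% of all tested features (16.2% higher and 6.89% lower).

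At day 28, the comparison for which Appbp2os and Tvp23bos were chosen, the OVA arrays did not overlap the control arrays in any of the 3 members. The same held for 42.2% of all tested features (19.1% higher and 23.1% lower in OVA), and 14.1% passed by limma (7.44% higher and 6.61% lower). Appbp2os was 1.49-fold lower in OVA, a log2 difference of -0.58. It was -0.42 without control day 28 replicate 1 and -0.74 without control day 28 replicate 2, so the size rests on which of the 2 controls is used. Atad3aos, which was not chosen for this comparison, differed by -0.35 ± 0.14 (SE, log2), with an interval of -0.65 to -0.05, and did not pass (adjusted p = 0.109, limma). Its OVA arrays are those that led to its choice, so the value is not independent of the choice. It passed with the normexp setting and its offset of 50 signal units (-0.34, adjusted p = 0.0162, limma).

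Tvp23bos had a log2 level of -3.70 ± 0.16 (SD, n = 4) in OVA at day 28 and measured means of -5.24 in controls of day 28, -4.99 in controls of day 14 and -5.04 in OVA at day 14. Since its probe was not well above background there, each dim array was given the lowest level of any probe well above background on it. With that level put in, Tvp23bos was 1.98-fold higher than in controls of day 28 and 1.27-fold higher than in OVA of day 14. Neither value is a lower bound, since that level is no upper limit for a dim probe. On control day 28 replicate 2 it was -4.63, while a Tvp23bos spot read -4.20. With the normexp setting and its offset, the log2 differences were 0.018 and -0.21 in the same order. On OVA day 14 replicate 2 the lowest level was -3.01, above every OVA array of day 28. Without this array the value against OVA of day 14 was 1.62-fold, a log2 value of 0.69 in place of 0.35. These fold values hold only as far as that lowest level applies to this probe. Per spot, all 8 spots on the OVA arrays of day 28 were well above background, at 32.2 to 44.9 units, and 2 of the 16 others were, in a range of 4.33 to 17.2 units. The 2 spots of 1 array differed by up to 1.99 on the log2 scale, on control day 28 replicate 2, where they read 4.33 and 17.2 units.

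The probe was also set against the 600 negative control spots of each array. On the OVA arrays of day 28 its signal was 7.85 to 10.3 times their median, and 0 to 2 of the 600 spots reached it. On the other 8 arrays the ratio was 1.23 to 4.39, and 2 to 17 of the 600 spots reached it, so the probe lay above most negative controls there too. The lowest ratio belonged to OVA day 14 replicate 2, where the negative control median was 6.96 units against 2.57 to 3.57 on the other arrays of the control and day 14 groups. The negative control median was also raised on the OVA arrays of day 28, at 4.06 to 4.29 units, while the Tvp23bos signal there was at least 32.3. In the raw median signal, before the program's background correction, the probe lay 39.8 to 49.2 units above the median negative control on the OVA arrays of day 28 and 12 to 21 units above it on the others. In these unscaled units the separation was present before background correction. The raw signal was not set relative to each array's own scale, which was highest on the OVA arrays of day 28. Whether the separation holds in raw signal scaled in that way was not tested. With the normexp setting the log2 difference between OVA and control at day 28 was 0.018 with an offset of 50 units and 0.95 with no offset, against 1.54 here.

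**Figure D4:**
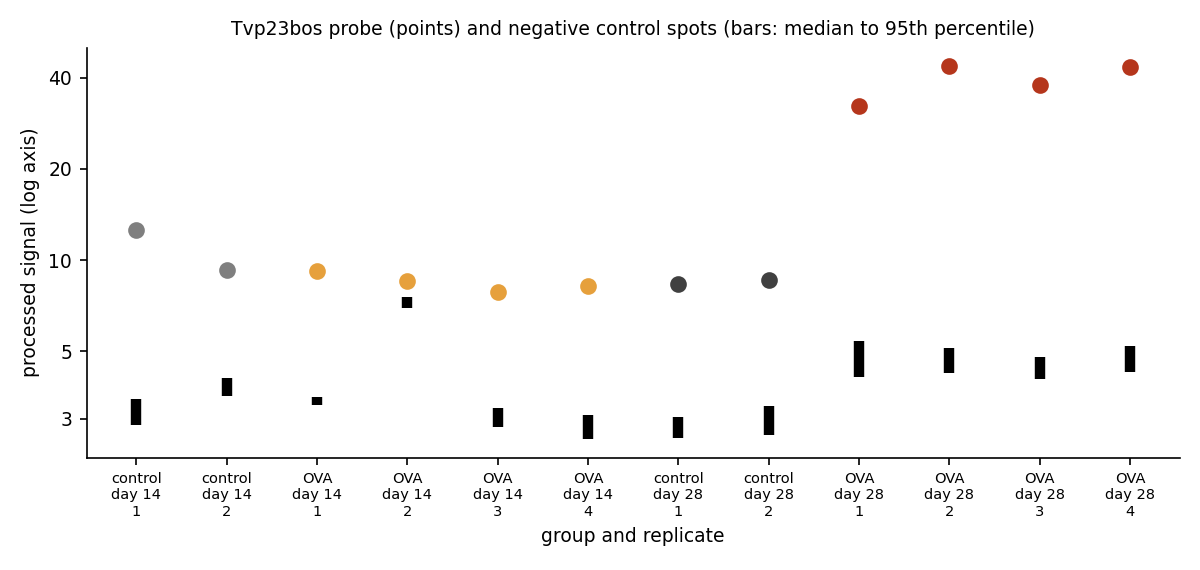
Processed signal of the Tvp23bos probe (points, mean of 2 spots) and the median to 95th percentile of 600 negative control spots (black bars) on each of the 12 arrays, on a log axis. The 4 OVA arrays of day 28 lie at 32.3 to 43.6 units and the other 8 at 7.87 to 12.6.

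Such a pattern was rare on the array and not confined to Tvp23bos. In all, 146 of 72515 tested features, or 0.201%, were well above background on all 4 OVA arrays of day 28 and on no other array, and 8 of these carry a RefSeq name. Such a feature passes the filter through the OVA group of day 28 alone and so has to be high there. Its difference from the other groups rests on signal not well above background in them.

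Between days 14 and 28 in the control spleens, within 1 slide, no member passed by limma, where 0.00138% of all tested features passed. None had an unadjusted p under 0.05, against 10.3% of all tested features. Appbp2os differed by 0.35 ± 0.18 (SE, log2, day 28 minus day 14), with an interval of -0.04 to 0.74 (adjusted p = 0.527, limma). Atad3aos differed by 0.15 ± 0.16 (SE), with an interval of -0.20 to 0.49 (adjusted p = 0.787, limma). Tvp23bos was not well above background on any of the 4 arrays, so no difference is given (adjusted p = 0.564, limma). The arrays of both days did not overlap for Appbp2os, as for 37% of all tested features (23% higher and 14% lower at day 28). Those of Tvp23bos were 0.089 apart, in signal not well above background. On control day 28 replicate 2 its 2 spots differed by 1.99, so this gap is not read as a separation. The number of arrays, 2 a day, limits these values.

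Between days 14 and 28 in the OVA spleens, 34.1% of all tested features passed by limma (15% higher and 19.1% lower at day 28) and 36.7% did not overlap (15.7% higher and 21% lower). All 3 members had groups that did not overlap, and Atad3aos and Tvp23bos were chosen for this comparison. Atad3aos was 1.46-fold lower at day 28, a log2 difference of -0.55, which ranged from -0.64 to -0.47 as each array was left out. Appbp2os, chosen for another comparison that used the same OVA arrays of day 28, fell by 0.43 ± 0.13 (SE, log2, adjusted p = 0.0222, limma), or 1.35-fold, a value not independent of that choice. That call was lost without OVA day 14 replicate 2 (adjusted p = 0.0545), OVA day 14 replicate 4 (0.0604), OVA day 28 replicate 1 (0.0603) or OVA day 28 replicate 2 (0.0637), and with spike-in scaling (-0.31, adjusted p = 0.136).

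The wider list holds every named gene whose symbol is that of a partner followed by os, with or without a number; 64 such genes had a named probe and 40 passed the filter on dim probes. A member chosen for a comparison is left out of the list's counts for it. Against control at day 14 none of the 40 passed by limma, and 3 (7.5%) had an unadjusted p under 0.05, against 14.7% of all tested features; 1 passed without control day 14 replicate 2. At day 28, 1 of the 38 transcripts other than Tvp23bos and Appbp2os passed, or 2.63% against 8.63% of named genes and 14.1% of all tested features. It was Zeb2os, which lies within the span of the zinc-finger transcription factor gene Zeb2 and rose by 0.84 ± 0.17 (SE, log2, adjusted p = 0.0102, limma). Zeb2os did not pass without control day 28 replicate 1 (adjusted p = 0.0915, limma), where none of the list did. The list's count was 3 without control day 14 replicate 1, 4 without control day 14 replicate 2 and 2 without OVA day 14 replicate 2. The median difference was 0.05 over the list and -0.03 over all features. In the controls none of the 40 passed between days and 6 (15%) had an unadjusted p under 0.05, against 10.3% of all tested features; 2 passed without control day 14 replicate 2.

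Between the OVA groups 3 of the 38 transcripts other than Atad3aos and Tvp23bos rose and 3 fell, or 15.8% against 26.4% of named genes and 34.1% of all tested features. The median difference was -0.07 over the list and -0.06 over all features. Among the 6 that passed, Zeb2os rose most (1.18 ± 0.14, SE, log2, adjusted p = 0.000168, limma) and Cdrt4os1 fell most (-0.50 ± 0.10, adjusted p = 0.00299, limma). Both passed in all 23 alternatives run on them. Appbp2os, counted among the 3 that fell, differed by -0.43, as given above. It was chosen for being low on the same OVA arrays of day 28, so its call is not independent of that choice. Emx2os, named for a homeobox gene, rose by 0.31 ± 0.08 (SE, adjusted p = 0.0172, limma) and did not pass without OVA day 28 replicate 3 (0.0528). Tomm6os, named for Tomm6, a small subunit of the mitochondrial outer membrane translocase, differed by 0.57 ± 0.20 (SE, adjusted p = 0.0445, limma) and was well above background on 3 of the 4 OVA arrays of day 14. It did not pass in 10 of 22 alternatives, among them those without control day 28 replicate 1 or 2, OVA day 14 replicate 1, 2 or 4, or OVA day 28 replicate 1, 2 or 3, and its difference was -0.011 with the normexp offset. Dmrta2os differed by -0.32 ± 0.11 (SE, adjusted p = 0.0365, limma) and was also well above background on 3 of the 4 OVA arrays of day 14. It did not pass in 11 of 22 alternatives, among them spike-in scaling (-0.21, adjusted p = 0.244, limma) and those without OVA day 14 replicate 1, 2 or 4, or OVA day 28 replicate 1, 3 or 4. Emx2os and Dmrta2os were named after their values were seen. Of the 6 that passed, 4 overlap their partner (2 of each direction) and 2 lie within 1000 bases of it (1 of each direction, the lower being Appbp2os). The count of 6 became 4 without OVA day 14 replicate 1 or OVA day 28 replicate 1. It became 3 when the array left out was OVA day 14 replicate 2, OVA day 14 replicate 4 or OVA day 28 replicate 3.

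**Figure D5:**
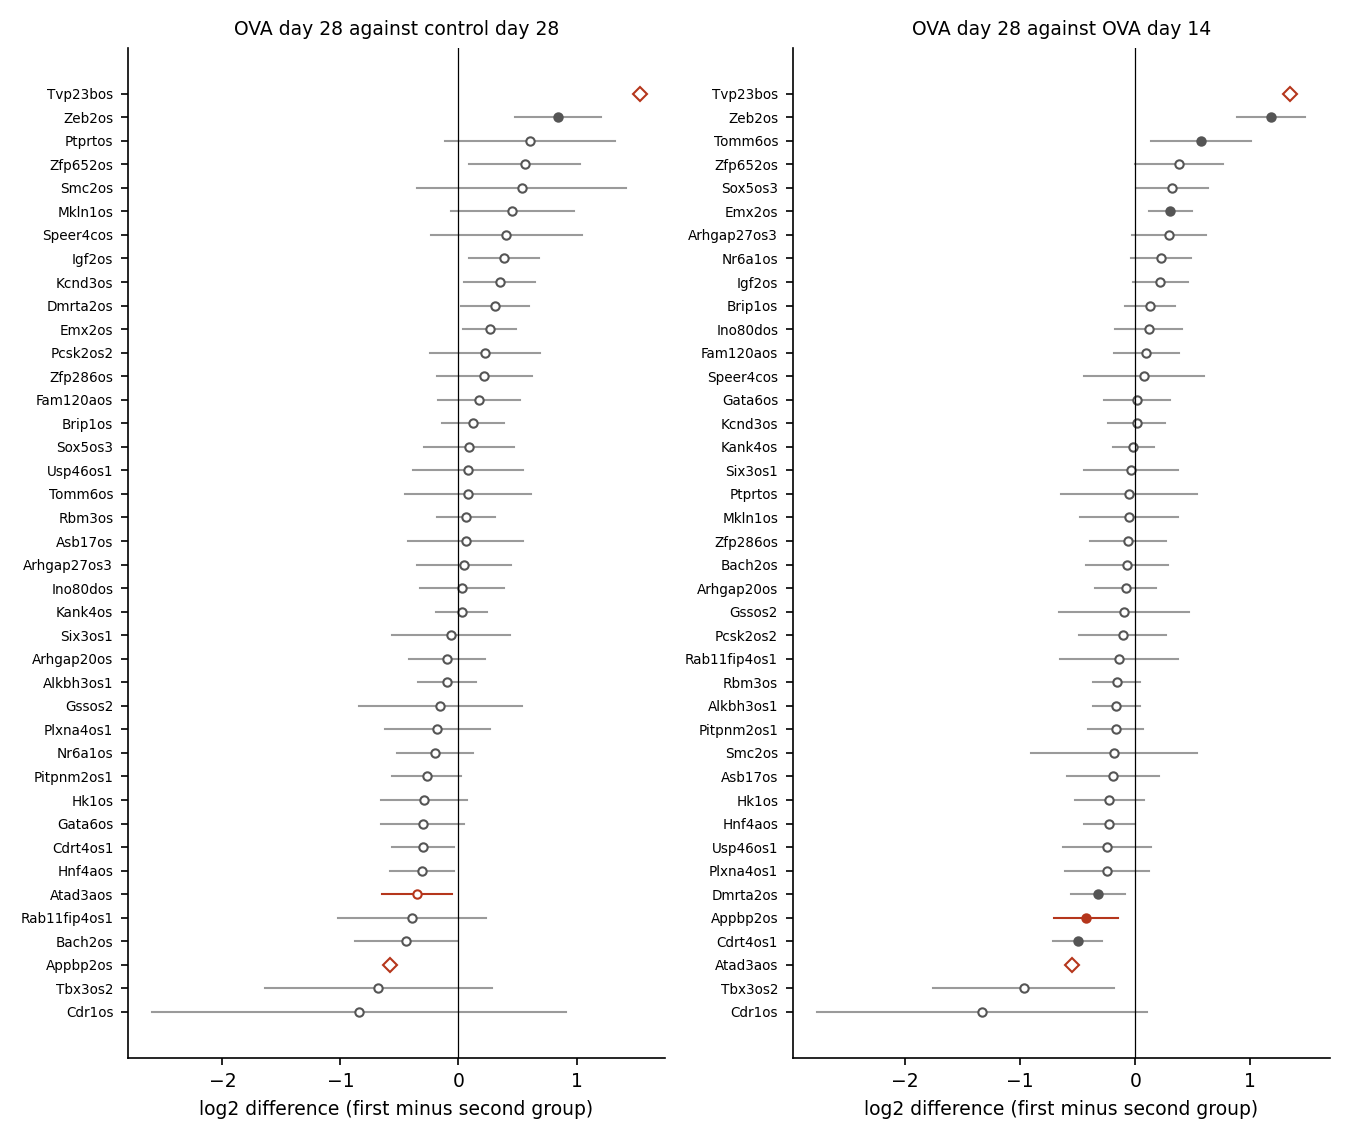
Log2 difference, with its 95% interval, of the 40 opposite-strand transcripts for OVA day 28 against control day 28 (left) and against OVA day 14 (right); filled circles passed an adjusted p under 0.05, red marks the 3 members, and diamonds mark a member chosen for that comparison, shown without a call or an interval. Tvp23bos is drawn highest in both panels by measured values, although it was not well above background in the groups set against OVA day 28. With the lowest level of any probe well above background put in for dim arrays, its log2 value against OVA day 14 was 0.35. That is below Zeb2os at 1.18. Atad3aos and Appbp2os are drawn among the lowest. The members were picked from these arrays, so their places are not a result.

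Within 100 kb of the members, 2 genes had a probe named through a non-coding RefSeq entry, both near Tvp23bos. Probes of the protein-coding neighbours were not looked up. Gm36614, a non-coding gene 10621 bases away, did not pass in any of the 4 comparisons and differed by 0.12 ± 0.11 (SE, log2, adjusted p = 0.431, limma) between the OVA groups. Cdrt4os1, 67821 bases away, fell by 0.50 between the same groups, as given above, while the Tvp23bos signal was higher. Neither neighbour was called higher in any of the 4 comparisons.

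Named genes with the most similar profile were found by Pearson's r of the log2 level over the 12 arrays, among 2513 other named tested genes for each member. For Atad3aos these were AV051173 (r = 0.93), Gm12511 (0.92) and Gm30039 (0.92), and the most opposite were Gm16201 (-0.89) and Gm40542 (-0.87). For Appbp2os they were 0610009L18Rik (0.94), Gm36402 (0.91) and 9330133O14Rik (0.89), against Gm32850 (-0.94) and Gm31711 (-0.92). For Tvp23bos they were Gm38842 (0.96), Gm13010 (0.96) and Gm35131 (0.95), against Gm30618 (-0.97) and Celrr (-0.94). Outside the OVA arrays of day 28 these coefficients rest on Tvp23bos signal not well above background. Gm13010 stood at 0.86 in OVA at day 28 and at -0.11 to 0.01 in the other 3 group means, the same split as Tvp23bos at a brighter level. The 12 arrays share their slides and scaling, and the OVA arrays of day 28 stand apart in most of these profiles, so the coefficients describe likeness over these arrays.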

How the data were processed

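Spleen RNA of 12 samples was labelled with Cy3 and hybridised to 1-colour Agilent arrays. The deposited scanner files give the linear intensity of each spot. Per the file headers they come from Feature Extraction, version 11.5.1.1, while the submitters' processing notes name version 9.1. The processed signal is background-corrected by that program, and other columns hold 0 or 1 flags. The authors also deposited log2 values for catalogue probes, which do not include the members. Their columns differed from the levels computed here by a constant of 0.037 to 0.128 per array, with medians of -0.959 to -0.874, and no source used here gives the origin of that constant.

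Control spots and outlier spots were left out, log2 processed signal minus the array's 75th percentile was taken, and spots of a probe were averaged. RefSeq accessions, without version, were matched to a GRCm38.p6 table (4658 of 13019 RefSeq probes, 4290 genes); where several probes shared a gene, the 1 with the highest mean stood for it. A feature was tested if all arrays of 1 or more groups had it well above background, which 72515 did. Limma 3.58.1 in R 4.3.3 (lmFit, eBayes) fitted the 4 group means over 12 arrays with 8 residual degrees of freedom, with Benjamini-Hochberg adjustment over all tested features; it was tested on simulated data. The number of arrays limits the precision. Probe sequences were not used here, so whether a probe also reads the partner gene was not checked.

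The members, lists and tests were chosen with earlier results of these data known. Named genes are the members, opposite-strand transcripts that passed (the 3 highest and 3 lowest where more than 6 passed), the named genes of highest (3) and lowest (2) r with each member, and named probes of partners or within 100 kb. Replicate numbers are shared between groups in the labels, but same-numbered arrays did not deviate together (correlations of deviations from -0.18 to 0.32), so the main fit has no block.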

Additional observations from a re-analysis of the deposited data

Results flagged for a closer look

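All 4 OVA arrays of day 14 had Atad3aos above the mean of their controls and all 4 OVA arrays of day 28 had it below theirs, a difference between the effects of -0.70 on the log2 scale. Appbp2os showed the same reversal, with a difference of -0.78. How many of all tested features show such a reversal was not counted, so it is not read as particular to these genes. Neither difference was tested, since it contains the comparison for which 1 of the genes was chosen and the arrays that led to the choice of the other, and the OVA groups lay on different slides. Spike-in scaling moves every feature by -0.25 between OVA and control at day 14. The day 14 difference was then 0.09 for Atad3aos and -0.051 for Appbp2os.

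On OVA day 14 replicate 2, the share of spots well above background (57.5%) stood apart from the other 3 arrays of its group, with a gap of 0.845 of the group's range, and so did the median negative control signal (6.96 units), with 0.830. No level of a member stood apart in this way. Of 12 groups of 4 values examined, chance would set about 1 in 20 apart. Without this array Atad3aos differed between the OVA groups by -0.47 and Appbp2os by -0.39 (adjusted p = 0.0545, limma).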

How the results depend on the processing

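In all, 24 alternatives were run, and of 272 alternative values of the members' differences 256 kept their direction and their side of the threshold or moved by less than the spread. Where a member was chosen for the comparison, a change of side of the threshold was not counted as a change. Appbp2os at day 28 is such a case, with all 23 values counted as kept and a range of -0.74 to -0.42. The exceptions for Tvp23bos were these. Between OVA and control at day 14, where it was not well above background, it turned to 0.22 with normexp and an offset of 50, 0.25 with normexp and no offset and 0.11 with quantile normalization. At day 28 it was 0.018 and 0.95 with the normexp settings, and between the OVA groups -0.21 and 0.51. Atad3aos was -0.34 at day 28 with the offset and -0.73 between the OVA groups without it. Spike-in scaling gave -0.051 for Appbp2os at day 14 and -0.31 between the OVA groups; the cause of these changes was not tested.

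Features called between OVA and control at day 14 numbered 49, against 260 and 97 with normexp with and without offset, 12 when the percentile was taken over probes detected on all arrays, 146 with quantile normalization, 442 with spike-in scaling, 1 with no filter on dim probes, 267 with probes well above background on all 12 arrays (which leaves out Tvp23bos), 232 with trend and robust settings, 1 with array weights, 0 in a fit of the 2 groups alone and 23 with the deposited values. At day 28 the 10191 became 27651 with the offset, 6504 with spike-in scaling, 5943 with no filter and 6116 with the deposited values. Between the controls the 1 became 3 with the offset, 0 with array weights or in a fit of the 2 groups alone, and 2 with the other settings that changed it. Between the OVA groups the 24708 became 47594 with the offset and 12563 with the deposited values, where 31719 features and no member are held. The share called higher was 91.8% at day 14 and 7.24% with spike-in scaling, 52.9% at day 28 and 22.9% with the offset, and 43.9% between the OVA groups, 19.5% with the offset and 71.5% with spike-in scaling. Opposite-strand calls, members chosen for the comparison included, were 0 at day 14, 3 at day 28, 0 between controls and 8 between OVA groups, and became 1, 16 and 29 with the offset (day 14, day 28, OVA groups), 6 at day 28 without it, and 5 between the OVA groups with probes well above background on all 12 arrays.

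A fit with the replicate number as a block called 0 features at day 14 and 6652 at day 28 and moved Appbp2os at day 28 to -0.67; the numbers do not pair the samples.

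As each array was left out, calls ranged from 2 (without OVA day 28 replicate 3) to 2309 (without control day 14 replicate 2) at day 14, where leaving out any array but control day 14 replicate 1 moved the count by over 1.5 times, from 1886 (without control day 28 replicate 2) to 12150 at day 28 (3122 without control day 28 replicate 1, and 5775 to 6078 without OVA day 28 replicate 1, 2 or 3), from 1 to 1892 (without control day 14 replicate 2) between controls (7, 5 and 12 without each other control) and from 19067 to 26625 between OVA groups. Opposite-strand calls ranged from 0 to 1, 1 (without control day 28 replicate 1) to 6, 0 to 2 and 5 (without OVA day 14 replicate 2) to 9 in the same order. Tvp23bos ranged from -0.17 to 0.063 at day 14 (without control day 14 replicate 1), and Appbp2os between the OVA groups from -0.52 to -0.36. Dim signal limits Tvp23bos, and 2 controls a day limit every comparison with control. No alternative probe of a member was found.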
